A study of Mus musculus with 4 samples.

Results

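The carbonic anhydrases are zinc enzymes that convert carbon dioxide and water into bicarbonate and protons, and back. Here 10 genes of the family, Car1, Car2, Car3, Car4, Car7, Car8, Car11, Car12, Car13 and Car14, were taken by symbol from the 37239 gene identifiers of an RNA-seq study of the mouse cochlea, and all 10 were found. The RNA came from dissected whole cochleae at postnatal day 8, before the onset of hearing in mice. Cochleae of mice homozygous for the cello allele of Ikzf2 (Ikzf2cello/cello, 2 libraries) were compared with those of wild-type littermates (Ikzf2+/+, 2 libraries). Ikzf2 encodes helios, an Ikaros family transcription factor of outer hair cells, and the design asks how cochlear RNA differs in the mutant. The labels name the 2 libraries of a genotype biological duplicates without giving the number of animals in each, so p-values measure the spread between these 4 libraries. The mutant mice carry the allele in every tissue, and a whole cochlea holds epithelium, nerve, bone, marrow and vessels, so that fewer cells of a type and less RNA per cell cannot be told apart.

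Members of the family differ in where they work. Car1, Car2, Car3, Car7 and Car13 are cytosolic enzymes, Car4 is anchored to the outer face of the plasma membrane by a lipid, and Car12 and Car14 span the membrane with the catalytic domain outside the cell. Car8 and Car11 are carbonic anhydrase-related proteins, which keep the fold of the family but lack zinc-binding residues and do not hydrate carbon dioxide. In the inner ear the family is known for supplying bicarbonate and protons to the transporters that set the pH and the ion content of endolymph and perilymph.

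The libraries held 42450937 and 47463910 counted alignments in cello and 49719984 and 42152616 in wild-type, of which 70.0% to 72.8% lay in annotated genes. Levels are CPM, counts scaled to the counted alignments of the library, as deposited. A single read was worth 0.0201 to 0.0237 CPM. Ikzf2 itself had 17.7 and 16.9 CPM in cello, against 22.9 and 18.5 CPM in wild-type (limma, log2 fold change -0.24, SE 0.13, adjusted p = 0.545). Cello is a point mutation, so this level does not check the genotype labels. Markers of outer hair cells were present in every library, with a summed level over 11 genes of 322 and 301 CPM in the cello libraries and of 494 and 496 CPM in the wild-type libraries. The log2 fold changes of these 11 genes ran from -2.21 to -0.02, so the sum does not describe each gene. In summed osteoblast genes and in summed neutrophil and marrow genes, cello replicate 1 lay above both wild-type libraries and cello replicate 2 below both. The summed level of 9 osteoblast genes was 2548 and 607 CPM in cello, against 1075 and 1100 CPM in wild-type. That of 7 neutrophil and marrow genes was 82.6 and 7.84 CPM in cello, against 19.4 and 40.4 CPM in wild-type. The sum of 13 erythroid genes did not have this order, at 1038 and 1203 CPM in cello and 639 and 1416 CPM in wild-type. In nerve genes wild-type replicate 1 was low. The summed level of 12 spiral ganglion neuron genes was 234 CPM there, against 628 CPM in wild-type replicate 2 and 808 and 964 CPM in cello.

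The family had a lower Car7 level in cello, with smaller differences in the same direction for Car8, Car11 and Car14. Among its abundant members, Car3, Car12 and Car13 differed by 0.05 or less on the log2 scale, Car2 by -0.11 and Car14 by -0.12. In limma, on log2(CPM + 0.5) over the 14721 genes that reached 1 CPM in 2 or more libraries, 0 of the 9 members tested passed an adjusted p of 0.05 in either direction. The background of that call was 0% of all genes in each direction, so the test separates no gene of the table from the rest. At an unadjusted p of 0.05, limma counted 1603 genes in all and, of the members, Car7 and Car8, both lower in cello (6.47% of all genes tested were past it in that direction). The read-count tests edgeR and DESeq2 called 0 and 195 genes at an adjusted p of 0.05, and of the members DESeq2 called Car7, which was lower in cello. That call was made for 0.589% of genes with a defined adjusted p in the lower and 0.847% in the higher direction. Both cello libraries lay below both wild-type libraries in 4 of the 9 tested members, namely Car7, Car8, Car11 and Car14, beside 28.7% of all genes tested. In the opposite direction the count was 0 of 9, beside 16.9%. Of the 9 members 5 had a log2 fold change below 0, beside 56.6% of all genes tested. Their median log2 fold change was -0.11, and over all genes tested it was -0.03.

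**Figure D1:**
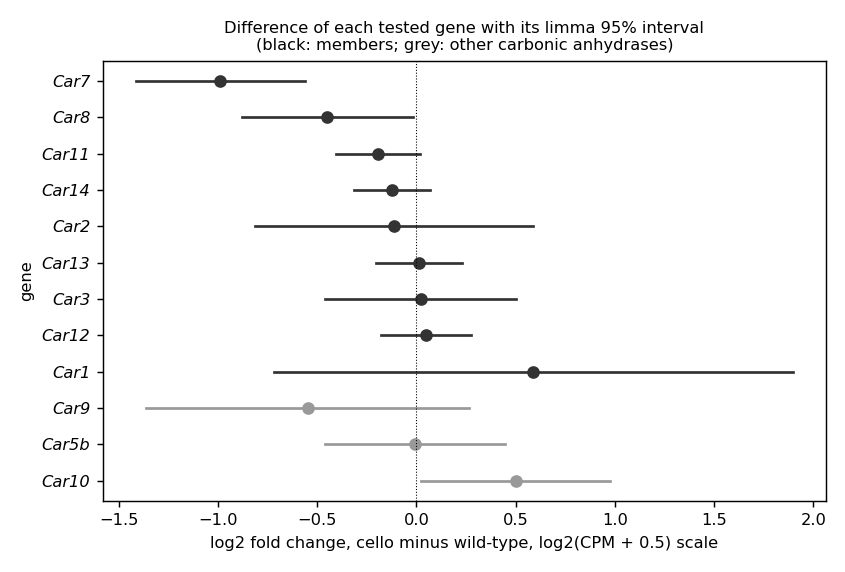
Log2 fold change of each tested carbonic anhydrase gene, cello minus wild-type, on the log2(CPM + 0.5) scale (x axis), with the limma 95% interval as a bar. The 9 members are black and 3 other genes of the family are grey. Car7 lies farthest to the left at -0.99, with an interval from -1.41 to -0.56, whereas Car12, Car13 and Car3 lie within 0.05 of 0.

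Car7 encodes a cytosolic carbonic anhydrase that is best known from neurons of the brain, where bicarbonate from this enzyme bears on signalling through GABA receptors. Its gene lies on chromosome 8, 104534689 to 104550343 of GRCm38, on the plus strand. Car7 stood at 6.90 and 5.52 CPM in cello cochleae, against 11.8 and 13.8 CPM in wild-type cochleae. These levels rest on 293 and 262 reads in cello and on 587 and 580 reads in wild-type. Both cello libraries lay below both wild-type libraries, and the mean was 6.21 ± 0.977 CPM in cello and 12.8 ± 1.38 CPM in wild-type (SD, n = 2 each), a ratio of 0.486. The log2 fold change was -0.99 (SE 0.17, 95% interval -1.41 to -0.56). Limma gave an unadjusted p of 0.0017, the 54th smallest of 14721, and an adjusted p of 0.419. On the read counts edgeR gave an adjusted p of 0.451 and DESeq2 one of 0.0069. When 1 library at a time was left out, the limma unadjusted p of Car7 lay between 0.0016 and 0.013, and its log2 fold change was -1.14 without cello replicate 1. The adjusted p over all settings tried lay between 0.0069 and 0.931, and the direction was the same in all 18. Only 25 of the 14721 genes tested, Car7 included, had a log2 fold change as low as that of Car7. The gene is remembered as one that the study itself reported from these samples, so its difference is not independent evidence.

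Because Car7 had the most negative log2 fold change of the members and helios binds DNA, the stretches of DNA at its annotated transcript starts are shown. RefSeq (GRCm38.p6) lists 3 windows for Car7, each from 250 bases before to 50 bases after a start, all on the plus strand. Capitals mark GGGAA, the core that zinc fingers of the Ikaros family recognise, or its reverse complement TTCCC. No other motif was searched. The first window, chr8:104534450-104534749, holds 3 matches and the second, chr8:104540557-104540856, holds 1. The last of them, chr8:104541059-104541358, holds 0 and is not printed. Of the 32851 windows of this length in the table, 62.7% hold at least 1 match and 8.83% at least 3. The window of Car12, chr9:66713436-66713735, is shown beside them because the level of that member differed little between the genotypes, and it also holds 1 match.
Car7 first window: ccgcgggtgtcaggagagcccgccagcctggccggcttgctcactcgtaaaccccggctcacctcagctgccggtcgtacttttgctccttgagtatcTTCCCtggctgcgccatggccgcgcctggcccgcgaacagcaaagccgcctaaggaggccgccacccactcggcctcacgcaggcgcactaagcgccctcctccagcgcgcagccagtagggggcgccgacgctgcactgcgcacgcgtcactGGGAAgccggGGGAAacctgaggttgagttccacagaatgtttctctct
Car7 second window: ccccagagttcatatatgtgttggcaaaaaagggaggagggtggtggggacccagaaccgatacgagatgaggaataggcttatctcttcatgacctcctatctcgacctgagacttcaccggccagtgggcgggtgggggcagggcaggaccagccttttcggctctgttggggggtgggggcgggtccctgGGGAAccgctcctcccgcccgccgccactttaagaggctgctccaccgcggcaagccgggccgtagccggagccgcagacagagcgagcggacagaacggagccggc
Car12 window: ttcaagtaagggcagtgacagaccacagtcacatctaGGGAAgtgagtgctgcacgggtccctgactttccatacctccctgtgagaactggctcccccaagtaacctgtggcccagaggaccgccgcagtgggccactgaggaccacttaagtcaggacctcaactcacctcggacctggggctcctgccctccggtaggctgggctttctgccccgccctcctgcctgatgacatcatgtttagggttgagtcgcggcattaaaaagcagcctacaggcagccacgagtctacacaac
Among the other members with windows, Car11 has 3 and 5 matches in its 2 overlapping windows, Car14 has 2 and Car4 has 1. Of all windows 27.1% hold at least 2 matches and 0.536% at least 5. The letters thus occur both at members whose genotypes overlapped in level and at members whose genotypes did not, and a match is not evidence of binding. The deposited values are sums per gene, so they do not say which Car7 start was in use. RefSeq windows were matched for 5 of the 10 members.

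The level of Car7 was set beside cell type markers library by library, after centring each gene on its mean over the 4 libraries on the log2(CPM + 0.5) scale. Centred Car7 levels were -0.35 and -0.64 in cello and 0.39 and 0.60 in wild-type. The median centred level of 11 outer hair cell genes was -0.26 and -0.22 in cello and 0.23 and 0.26 in wild-type, and that of 9 genes used by hair cells of both kinds was -0.36 and -0.25 in cello and 0.27 and 0.38 in wild-type. By the root-mean-square distance over the 4 libraries, the hair cell list was the nearest of the marker lists to Car7 (0.23), followed by the outer hair cell list (0.29) and the stria vascularis list (0.33). The spiral ganglion neuron list was the farthest, at rank 16 (1.25). Car7 and both hair cell lists were lower in both cello libraries, with a wider gap between the genotypes in Car7, but Car7 was lowest in cello replicate 2 and both lists in cello replicate 1. Relative to the outer hair cell median, the Car7 level was -0.08 and -0.43 in cello and 0.16 and 0.34 in wild-type.

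The most abundant markers of the nearest list differed among themselves. Myo6, an unconventional myosin of hair cells, stood at 241 and 226 CPM in cello and at 239.9 and 248 CPM in wild-type (log2 fold change -0.06). Cib2, a partner of the mechanotransduction channel, stood at 25.8 and 31.3 CPM in cello and at 41.5 and 42.2 CPM in wild-type (-0.55). Pou4f3, a transcription factor needed for hair cell survival, stood at 14.5 and 15.3 CPM in cello and at 27.2 and 27.8 CPM in wild-type (-0.86). All 9 hair cell genes had a less negative log2 fold change than Car7, whereas among the 11 outer hair cell genes 4 were more negative and 7 less. Whether fewer hair cells or less Car7 RNA per cell gave these levels was not tested.

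The individual genes nearest to Car7 in centred level, among 11319 genes with a mean of at least 5 CPM, were Klk8, Kncn and Tmprss9. Klk8, a secreted serine protease gene, stood at 10.9 and 7.37 CPM in cello and at 17.4 and 19.7 CPM in wild-type, at a distance of 0.08. Kncn encodes kinocilin, a protein of the kinocilium and of microtubules in hair cells and supporting cells, and stood at 8.06 and 5.94 CPM in cello and at 11.5 and 13.8 CPM in wild-type, at a distance of 0.09. Tmprss9, which encodes a membrane serine protease, stood at 316 and 223 CPM in cello and at 451 and 506 CPM in wild-type, at a distance of 0.10. Only Klk8 and Kncn lay within 0.1 of Car7, over 4 libraries.

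Car8 and Car11 are the 2 members without catalysis, and both had lower levels in cello. Car8 is known to bind the inositol trisphosphate receptor Itpr1 and is highly expressed in Purkinje cells of the cerebellum. The gene lies on chromosome 4, 8143362 to 8239041, on the minus strand. Car8 stood at 3.44 and 3.90 CPM in cello, against 4.85 and 5.55 CPM in wild-type, from 146 and 185 reads in cello and 241 and 234 reads in wild-type. Both cello libraries were below both wild-type libraries. The log2 fold change was -0.45 (SE 0.17, 95% interval -0.88 to -0.02), with an unadjusted limma p of 0.043 and an adjusted p of 0.452. DESeq2 gave an adjusted p of 0.695. When 1 library at a time was left out, the limma unadjusted p of Car8 lay between 0.045 and 0.224, and its log2 fold change was -0.37 without cello replicate 1.

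Car8 levels followed the same order of libraries as the medians of hair cell, strial and supporting cell genes. Its centred level was -0.30 and -0.15 in cello and 0.14 and 0.31 in wild-type, at a distance of 0.05 from the median of 10 stria vascularis genes, 0.07 from the outer hair cell median and 0.10 from the hair cell and supporting cell medians. These 4 lists were close to each other in these libraries, so the 4 levels do not assign Car8 to one of them. The most abundant strial markers were Slc12a2, the sodium-potassium-chloride cotransporter gene (log2 fold change -0.15), the pigment enzyme gene Dct (-0.40) and Atp1b2, a sodium pump subunit gene (-0.32). Dct stood at 711 and 733 CPM in cello, against 922 and 988 CPM in wild-type. The nearest single genes were Wnt7a, a Wnt ligand gene, at a distance of 0.02, Plcxd2 and Espn, which encodes the actin bundler espin of stereocilia. Espn stood at 10.6 and 12.0 CPM in cello and at 14.1 and 16.7 CPM in wild-type. Within 0.1 of Car8 lay 282 of the 11320 genes compared, so its profile was not limited to the genes named.

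Car11, which encodes a secreted related protein, lies on chromosome 7, 45699843 to 45704682, on the plus strand. It stood at 25.7 and 26.2 CPM in cello, against 29.9 and 29.6 CPM in wild-type, and the libraries within each genotype lay close together. The groups did not overlap, but the difference was small (log2 fold change -0.19, SE 0.08, 95% interval -0.41 to 0.02) and did not pass in limma (adjusted p = 0.482). In centred level the supporting cell list was nearest to Car11, at a distance of 0.06, with the macrophage list at 0.08. Such nearness was common for a profile this flat, since 4151 of 11319 genes lay within 0.1 of Car11. Tectb, the most abundant gene of the supporting cell list, stood at 748 and 2633 CPM in cello and at 2474 and 2594 CPM in wild-type, unlike Car11 in cello replicate 1. The 2 members without catalysis together summed to 29.2 and 30.1 CPM in cello and to 34.8 and 35.2 CPM in wild-type, a sum set mostly by Car11.

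Levels of different genes can be compared only per length, and here they were divided by the length of the union of annotated exons (CPM per kb). On this scale Car3 led the family, with 641 and 620 CPM per kb in cello and 694 and 556 in wild-type, and made up 75.1% of the summed level of the 10 members. Only 23 of 14667 tested genes with a known length had a higher mean level per kb than Car3. Car2 followed at 89.3 and 49.3 CPM per kb in cello and 70.8 and 72.8 in wild-type. Then came Car14 (mean of 4 libraries 53.6 CPM per kb), Car13 (41.1), Car12 (23.4) and Car11 (14.5), each with a range apart from that of the next. Car2 and Car14 overlapped in range and so were not separated. Below them Car7 averaged 2.61 CPM per kb over the 4 libraries, Car1 1.22, Car8 1.15 and Car4 0.378. The ranges of Car7 and Car1 overlapped, as did those of Car1 and Car8.

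**Figure D2:**
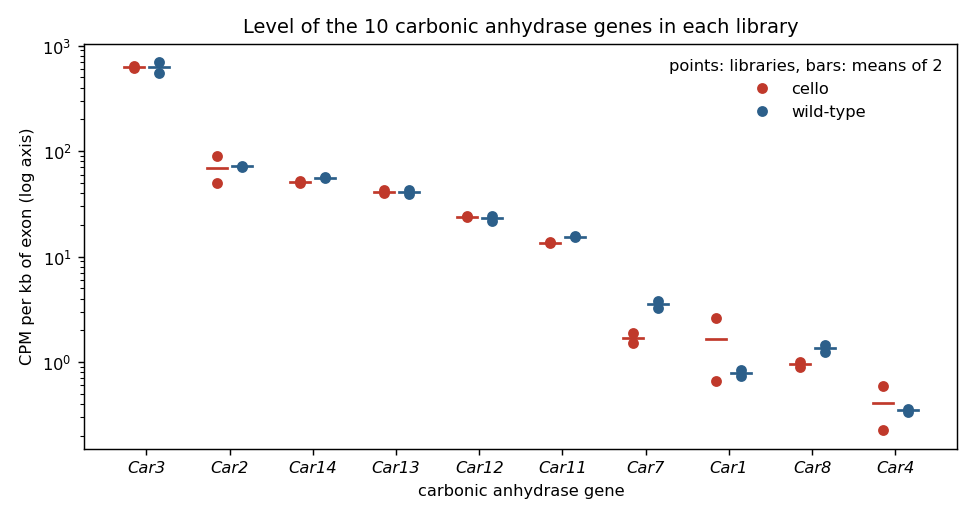
Level of the 10 carbonic anhydrase genes in CPM per kb of exon (log axis), ordered by their mean, with cello in red to the left and wild-type in blue to the right. Points are single libraries and bars are means of 2. Car3 lies near 628 CPM per kb, Car7 is the member with the widest gap between non-overlapping genotypes, and Car1, Car2 and Car4 spread within cello.

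Car3, Car12 and Car13 are abundant members whose levels differed little between the genotypes. Car3 encodes a cytosolic enzyme of low activity that is known for its abundance in skeletal muscle and fat. It stood at 1837 and 1775 CPM in cello, against 1987 and 1593 CPM in wild-type, so the cello libraries lay between the wild-type ones (log2 fold change 0.02, 95% interval -0.46 to 0.50). The lists of muscle and fat genes were set beside it. The summed level of 9 skeletal muscle genes was 4.69 and 5.35 CPM in cello and 7.18 and 31.6 CPM in wild-type, and it was highest in wild-type replicate 2, where Car3 was lowest. The summed level of 6 adipocyte genes was 1.30 and 0.147 CPM in cello and 0.322 and 0.664 CPM in wild-type, and 0 of the 6 passed the filter on low levels. In centred level the fibrocyte list was nearest to Car3, at a distance of 0.07. Such nearness was common, since 1220 of 11319 genes lay within 0.1 of Car3. The part of any of these cell types in the Car3 level was not tested.

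Car12, a membrane enzyme with an extracellular active site, stood at 183 and 179 CPM in cello and at 166 and 184 CPM in wild-type (log2 fold change 0.05, 95% interval -0.18 to 0.27). Car13, a cytosolic enzyme of many tissues, stood at 97.4 and 92.2 CPM in cello and at 98.6 and 89.6 CPM in wild-type (0.01, 95% interval -0.21 to 0.23). The genotypes overlapped in both genes, and the intervals hold differences in either direction. Car12 spans 66713686 to 66766845 of chromosome 9, on the plus strand. For Car3, Car12 and Car13 the sign of the difference changed when 1 library was left out.

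Car14, the other transmembrane enzyme, stood at 134 and 127 CPM in cello, against 144 and 141 CPM in wild-type. Both cello libraries lay below both wild-type libraries, with a log2 fold change of -0.12 (SE 0.08, 95% interval -0.32 to 0.07; limma, adjusted p = 0.572). Car14 lies on the minus strand of chromosome 3 (95897768 to 95904691) and shares 445 exon bases with Aph1a, a gamma-secretase subunit gene on the opposite strand. Aph1a stood at 20.1 and 21.2 CPM in cello and at 23.4 and 23.3 CPM in wild-type. Without a stated strand setting, it is not known how reads in the shared bases were assigned. Ambiguous alignments, which enter no gene level, made up 3.40% (wild-type replicate 1) to 3.53% (wild-type replicate 2) of counted alignments. Whether reads in the shared bases were among them was not tested, nor was the part of Aph1a in the Car14 level. Car4, the lipid-anchored enzyme, known from capillaries and kidney, stood at 1.15 and 0.442 CPM in cello and at 0.664 and 0.712 CPM in wild-type, from 49 and 21 reads in cello and 33 and 30 reads in wild-type. It did not pass the filter on low levels and was not tested.

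Car1 and Car2 varied more between the 2 cello libraries than between the genotypes. Car1 is a cytosolic enzyme of red blood cells and their precursors. It stood at 3.27 and 0.822 CPM in cello, against 1.05 and 0.925 CPM in wild-type, from 139 and 39 reads in cello and 52 and 39 reads in wild-type. The cello libraries lay on both sides of the wild-type ones. Between the genotypes it differed by 0.59 on the log2 scale (SE 0.51; limma, adjusted p = 0.684), and the log2 fold change was -0.17 without cello replicate 1 and 1.35 without cello replicate 2.

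Car2 is the fast cytosolic isoform, found in red cells, osteoclasts, glia and transporting epithelia. It stood at 216 and 119.5 CPM in cello, against 171 and 176 CPM in wild-type. The wild-type libraries lay close together between the 2 cello libraries, which differed 1.81-fold. Its log2 fold change was -0.11 (SE 0.28; limma, adjusted p = 0.889), which was 0.31 without cello replicate 2 and -0.54 without cello replicate 1, so each cello library alone decides its direction.

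Several marker lists were also high in cello replicate 1. The summed level of 10 osteoclast genes was 468 and 184 CPM in cello and 204 and 204 CPM in wild-type, and that of 9 endothelial genes was 404 and 271 CPM in cello and 303 and 299.98 CPM in wild-type. Erythroid genes as a list had median centred levels of 0.97 and -0.71 in cello and -0.55 and 0.44 in wild-type. Centred Car1 levels were 1.05 and -0.46 in cello and -0.24 and -0.35 in wild-type. The list thus had the sign of Car1 in both cello libraries and in wild-type replicate 1, but not in wild-type replicate 2. The osteoclast list was nearest to Car1 (distance 0.16), and the endothelial list was nearest to Car2 (also 0.16). Of the osteoclast genes, Ctsk, the protease gene of bone resorption, stood at 191 and 85.9 CPM in cello and at 92.6 and 86.9 CPM in wild-type, Acp5 at 111 and 35.3 CPM in cello and at 46.5 and 44.3 CPM in wild-type, and Mmp9 at 118 and 31.9 CPM in cello, against 36.6 and 38.9 CPM in wild-type. The nearest endothelial markers by abundance were Emcn (log2 fold change -0.0041), Cdh5 (0.20) and Kdr (0.05). The part of these cell types in the levels of Car1 and Car2 was not tested.

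The single genes nearest to Car2 were Scg2, a secretogranin gene, Smpd3, a sphingomyelinase gene of bone and cartilage, and Col5a2, a fibrillar collagen gene, at distances of 0.04 to 0.05. Smpd3 stood at 214 and 110.0 CPM in cello and at 158 and 160 CPM in wild-type. Those nearest to Car1 were Gja1, the gap junction gene that is abundant in osteoblasts, Cd109 and Phex, an endopeptidase gene of osteoblasts and osteocytes, at distances of 0.04 to 0.07. Phex stood at 168 and 63.0 CPM in cello and at 77.0 and 72.1 CPM in wild-type.

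**Figure D3:**
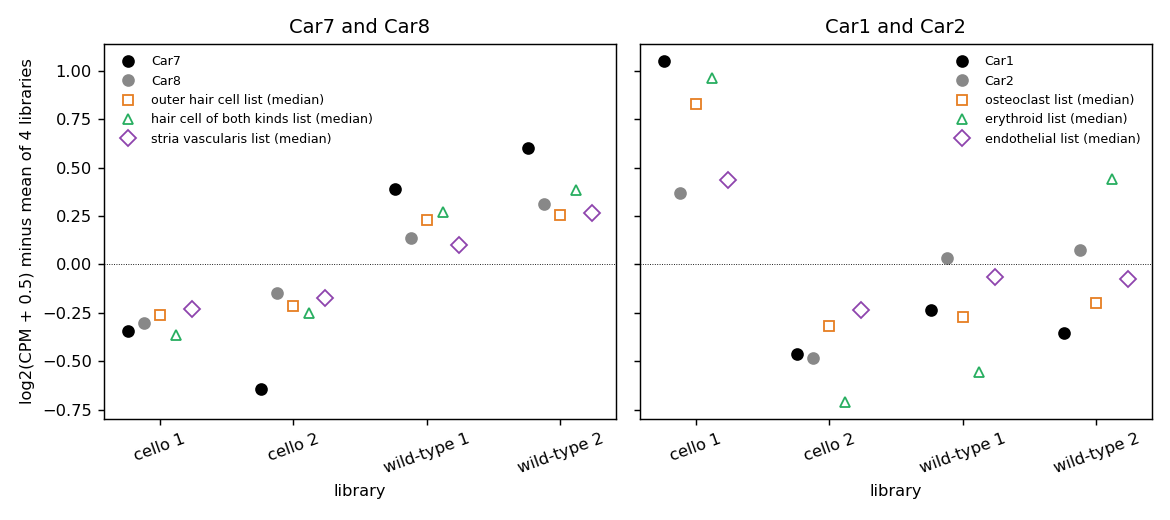
Level in each library after centring on the mean of all 4, as log2(CPM + 0.5) (y axis), of Car7 and Car8 (left panel) and of Car1 and Car2 (right panel) as filled points, with the medians of marker lists as open symbols. Car7 and Car8 lie below 0 in both cello libraries and above 0 in both wild-type libraries, as the hair cell and strial lists do. Car1 and Car2 are high in cello replicate 1 and low in cello replicate 2.

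Of the members, 4 lie side by side. Car13, Car1, Car3 and Car2 occupy 259 kb of chromosome 3, from 14641727 to 14900770 of GRCm38, with Car1 on the minus strand and the other 3 on the plus strand. Their neighbourhood did not go with a shared pattern. Car13 and Car3 had centred levels between -0.17 and 0.15 in every library, whereas Car1 and Car2 reached 1.05 and 0.37 in cello replicate 1. By place in the cell, the 5 cytosolic members summed to 2161 and 1993 CPM in cello and to 2270.1 and 1874 CPM in wild-type, a sum set mostly by Car3. The 3 membrane-bound members summed to 318 and 306 CPM in cello and to 311 and 326 CPM in wild-type. In summed CPM the genotypes overlapped in both classes. Per kb of exon the cytosolic sums still overlapped. The membrane-bound sums per kb did not, at 77.2 and 73.8 in cello and 78.8 and 79.9 in wild-type.

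Of 6 further genes of the family, Car5b, Car9 and Car10 passed the filter on low levels. Car10, a further related protein without catalysis, was higher in both cello libraries, at 7.04 and 7.88 CPM in cello and 4.42 and 5.91 CPM in wild-type (log2 fold change 0.50, SE 0.19; limma, unadjusted p = 0.042, adjusted p = 0.452). It thus lay on the opposite side of 0 from Car8 and Car11. Car10 is known as a ligand of neurexins at synapses, and the summed level of 12 spiral ganglion neuron genes was 808 and 964 CPM in cello and 234 and 628 CPM in wild-type. Centred Car10 levels were 0.17 and 0.33 in cello and -0.44 and -0.06 in wild-type. The neuron list had medians of 0.55 and 0.73 in cello and -1.45 and 0.19 in wild-type, the same order of libraries over a wider range. By distance, which also depends on the size of the differences, that list ranked 11 of the 16 marker lists for Car10 (0.59). The cartilage list was nearest, at 0.24. The part of either cell type in the Car10 level was not tested. Car9, a membrane enzyme known as a target of hypoxia signalling, stood at 0.707 and 1.60 CPM in cello and at 1.85 and 1.80 CPM in wild-type (log2 fold change -0.55, limma, adjusted p = 0.556). The mitochondrial enzyme gene Car5b stood at 5.39 and 4.95 CPM in cello, against 5.85 and 4.60 CPM in wild-type. The others were near the limit of counting. Car15 had 9 and 5 reads in cello and 11 and 11 in wild-type, Car5a had 0 and 5 reads in cello and 4 and 2 in wild-type, and Car6 had 4 and 1 reads in cello and 3 and 1 in wild-type. A count of 0 in cello replicate 1 allows up to 0.0707 CPM, for counting error only.

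Carbonic anhydrases work with carriers of bicarbonate, protons and lactate, and a list of 36 such transport genes was set beside them. Of these, 29 were tested and 0 passed an adjusted p of 0.05 by limma in either direction. At an unadjusted p of 0.05, 3 of the 29 were lower and 2 higher in cello, beside 6.47% and 4.42% of all genes tested. The log2 fold change was below 0 in 15 and above 0 in 14, with a median of -0.02, beside -0.03 over all genes tested. Both cello libraries lay below both wild-type libraries in 8 genes and above them in 4, or 8 and 4 of 29, beside 28.7% and 16.9% of all genes.

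On the lower side in cello the smallest p belonged to Slc9a2, a sodium-proton exchanger gene, at 49.0 and 43.2 CPM in cello and 59.7 and 63.0 CPM in wild-type (log2 fold change -0.41, SE 0.09; limma, unadjusted p = 0.0069, adjusted p = 0.419). Atp6v0a4 encodes a subunit of the proton pump of acid-secreting cells, and mutations of it cause renal acidosis with deafness in humans. It stood at 16.0 and 10.9 CPM in cello and at 28.0 and 22.6 CPM in wild-type, with a log2 fold change of -0.90 (SE 0.21; limma, adjusted p = 0.419; DESeq2, adjusted p = 0.046). Slc12a7, the potassium-chloride cotransporter gene of supporting cells around outer hair cells, stood at 144 and 129 CPM in cello, against 164 and 182 CPM in wild-type (log2 fold change -0.34). The lactate carrier gene Slc16a3 stood at 3.11 and 5.08 CPM in cello and at 5.81 and 6.36 CPM in wild-type (log2 fold change -0.55; limma, unadjusted p = 0.074).

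On the higher side the smallest p belonged to Slc4a3, a chloride-bicarbonate exchanger gene of excitable tissues, at 35.7 and 36.4 CPM in cello and 29.6 and 25.8 CPM in wild-type (log2 fold change 0.38, SE 0.10; limma, adjusted p = 0.423). The sodium-proton exchanger gene Slc9a3 stood at 4.81 and 6.15 CPM in cello and at 1.07 and 3.27 CPM in wild-type (1.29), and Otop1, a proton channel gene, at 4.19 and 1.66 CPM in cello and at 0.865 and 1.40 CPM in wild-type (0.99). Slc26a7, an anion exchanger gene, stood at 65.4 and 93.4 CPM in cello and at 56.7 and 66.2 CPM in wild-type. Its genotypes overlapped (log2 fold change 0.35; limma, unadjusted p = 0.120). Slc26a4 encodes pendrin, which secretes bicarbonate into endolymph, and stood at 71.2 and 39.3 CPM in cello and at 47.4 and 49.9 CPM in wild-type. Like Car2 it was highest in cello replicate 1 and lowest in cello replicate 2. Atp6v1b1, a further proton pump subunit gene, stood at 0.353 and 0.801 CPM in cello and at 0.322 and 0.522 CPM in wild-type and was not tested.

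**Figure D4:**
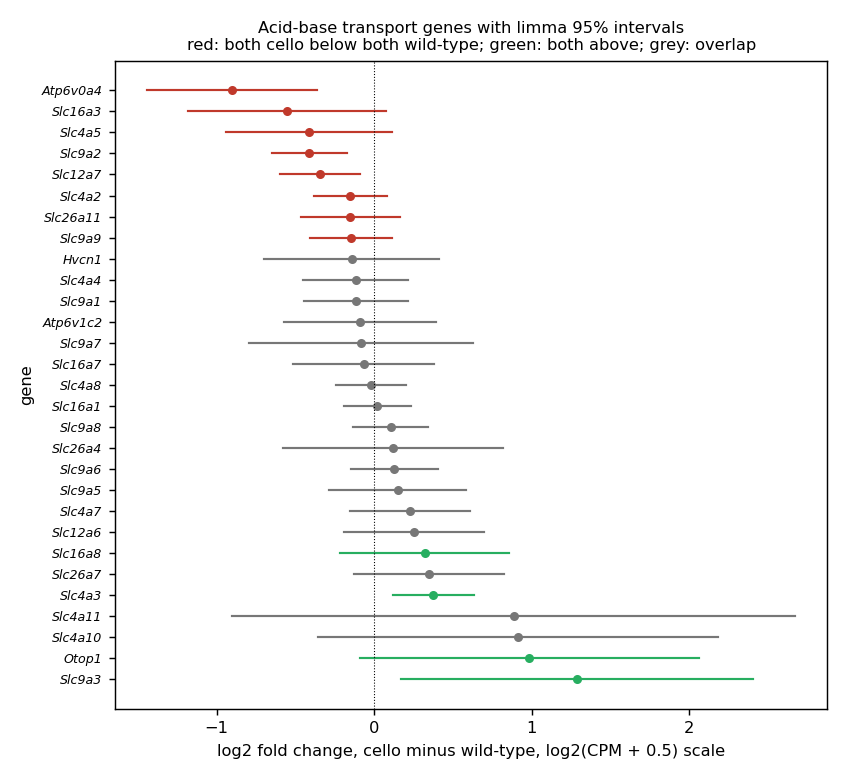
Log2 fold change of the 29 tested acid-base transport genes, cello minus wild-type, on the log2(CPM + 0.5) scale (x axis), with limma 95% intervals. Red marks genes in which both cello libraries lay below both wild-type libraries, green those in which both lay above, and grey those that overlapped. The points run from Atp6v0a4 at -0.90 to Slc9a3 at 1.29, with 15 below and 14 above 0.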

How the data were processed

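Whole-cochlea RNA of 2 cello and 2 wild-type libraries was sequenced after TruSeq preparation, per the labels. The authors deposited CPM per gene, aligned by TopHat to GRCm38 according to the submitters' processing notes. How reads were counted, with which strand setting and annotation, is not given in the sources used here. The 5 entries that name no gene, with 27.2% to 30.0% of alignments, count in the CPM total and entered no test. Whole reads were recovered, as 100% of values were whole multiples of 1 read (tolerance 0.001). Of 37239 identifiers 36504 matched GENCODE M21.

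The fit was limma 3.58.1 (R 4.3.3), two-sided with a variance trend, and p-values were adjusted by Benjamini-Hochberg over all 14721 genes. Fold changes are cello minus wild-type and understate those of low genes. An exact permutation test of these groups cannot go below a p of 0.333. The recovered reads were also tested with edgeR 4.0.16 (TMM, quasi-likelihood) and DESeq2 1.42.0, which gave no adjusted p for 1142 genes. The main limma fit and the edgeR and DESeq2 fits were also run on simulated counts, with an outcome not reported here. Other alternatives were pseudocounts, filters, rescaling, moderation, a replicate block and leaving out single libraries.

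Named genes are the members, Ikzf2, the rest of the family, up to 4 transport genes per direction by p with Slc26a4 and Atp6v1b1, and up to 3 markers of a nearest list and 3 nearest genes for members on which results turn. Aph1a was named after its values were seen, for its overlap. Members and lists were chosen with earlier results of these data known. A planned comparison of the proteins was not made.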

Additional observations from a re-analysis of the deposited data

How the results depend on the processing

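Of 18 alternatives, the direction of Car7, Car8, Car11 and Car14 was the same in every one that gave a value (17 for Car8, which misses a mean of at least 5 CPM). The log2 fold change of Car7 ranged from -1.14 to -0.84, and DESeq2 was the alternative in which it passed (adjusted p = 0.0069). DESeq2 called 80 genes lower and 115 higher in cello, with 1 member lower. Leaving out 1 library gave 0 to 90 genes higher, the 90 without wild-type replicate 2, and called 0 members.

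The median log2 fold change of the members was -0.00801 in edgeR and -0.00758 in DESeq2 and ran from -0.167 to 0.0461 without 1 library. That of the transport list was 0.0213 without a filter, 0.0191 with TMM rescaling, 0.0174 with median-of-ratios rescaling, 0.0205 in edgeR, 0.0189 in DESeq2, and -0.0177 to 0.0308 without 1 library. The log2 fold change of Car5b changed sign with TMM (0.0309), median-of-ratios (0.0294), CPM over reads in genes (0.0204), CPM without haemoglobin and mitochondrial genes (0.0234), edgeR (0.0235) and DESeq2 (0.0223). Without 1 library the log2 fold changes ran from -0.17 to 1.35 for Car1, -0.54 to 0.31 for Car2, -0.14 to 0.18 for Car3, -0.0282 to 0.12 for Car12, -0.0562 to 0.0803 for Car13 and -0.16 to 0.15 for Car5b. The cause was not tested.

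With the replicate number as a block, 0 genes passed in limma, the adjusted p of Car7 was 0.237 and no call changed. Deviations of libraries with equal numbers correlated at 0.13, and no label says that a number marks a litter or batch, so the numbers do not pair the samples. Levels of Car1 and Car4 rest on 139 reads or fewer per library.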
